A study of Mus musculus with 37 samples.

Results

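Transcripts that neurons are known for were followed through RNA-seq libraries of cortical astrocytes. The genes were chosen by symbol from 39 names of vesicle, cytoskeletal, postsynaptic, transmitter and RNA-binding genes, and 38 had a row in both deposited tables, out of 21975 genes. The listed gene Meg3 was not analysed here. The libraries came from male wild-type mice, named CD1 in the methods of the study and CD31 in the sample labels. Both cortices were taken 4 months after controlled cortical impact (CCI), a piston injury of 1 hemisphere, or after sham surgery with craniectomy and electrodes. Injured mice were divided by EEG into those with post-traumatic epilepsy (PTE+) and those without it (PTE−). The ipsilateral table held 4 PTE+, 10 PTE− and 5 sham libraries, and the contralateral table held 4, 9 and 5. Each library was 1 hemisphere of 1 mouse, and 17 mice (3 PTE+, 9 PTE− and 5 sham) had both. Cells were captured with magnetic beads against ACSA-2, an astrocyte surface antigen, after papain dissociation, so an astrocyte library can also hold RNA of other cells or of torn processes.

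Neurons release transmitter when vesicles fuse with the membrane of the nerve ending, a step driven by SNARE proteins and triggered by calcium sensors. Their long processes are held by tubulin, microtubule-binding proteins and neurofilaments, and the receiving side of an excitatory synapse is rich in calcium/calmodulin-dependent kinase. In glia many of these genes are held silent by the repressor REST, which binds an RE1 element made of half-sites that contain GGACAGC and CAGCACC. In bulk libraries fewer neuronal fragments and less neuronal RNA per cell cannot be told apart, and both would change TPM, the unit of these tables, which is a gene's share of all transcripts in a library after correction for gene length.

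The sequence before the gene start is shown for the members that followed the others most and least closely across the contralateral libraries, among 21 members with 1 entry in the RefSeq promoter table (build GRCm38.p6). Syn1 and Dnm1 followed most closely, and Gad1 and Snhg11 least. Each sequence ends before the first annotated start in its window. Capitals mark matches, on either strand, to the RE1 half-site letters named above or to TATAAA, the TATA element of core promoters.
Syn1, chrX:20921005-20921168, minus strand: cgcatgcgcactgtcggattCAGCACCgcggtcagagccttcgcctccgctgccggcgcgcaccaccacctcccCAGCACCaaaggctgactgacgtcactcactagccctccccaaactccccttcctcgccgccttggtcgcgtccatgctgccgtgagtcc
Dnm1, chr2:32353339-32353579, minus strand: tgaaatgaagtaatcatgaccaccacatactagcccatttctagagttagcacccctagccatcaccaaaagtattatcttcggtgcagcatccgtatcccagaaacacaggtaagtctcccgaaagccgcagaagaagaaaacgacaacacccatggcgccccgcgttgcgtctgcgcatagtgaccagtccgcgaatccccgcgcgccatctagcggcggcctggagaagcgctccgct
Gad1, chr2:70561879-70562041, plus strand: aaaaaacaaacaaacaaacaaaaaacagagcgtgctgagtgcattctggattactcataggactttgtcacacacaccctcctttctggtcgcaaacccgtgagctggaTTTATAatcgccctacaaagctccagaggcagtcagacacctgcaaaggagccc
Snhg11, chr2:158375463-158375637, plus strand: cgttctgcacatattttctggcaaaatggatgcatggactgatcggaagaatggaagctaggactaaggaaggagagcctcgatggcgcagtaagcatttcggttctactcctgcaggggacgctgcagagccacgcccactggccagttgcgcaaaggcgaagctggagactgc
The Syn1 sequence held CAGCACC at 2 places, beginning 230 and 176 bases before the RefSeq start, and Gad1 held the TATA letters on the opposite strand. Neither Dnm1 nor Snhg11 held any of the 3 motifs. Over the 250 bases before the start, CAGCACC was found for 2 of 27 members in the table (Tubb3 and Syn1), against 5.73% of all 32851 windows. GGACAGC was found for 2 (Map2 and Gad2), against 5.28% of windows, and TATAAA for 3 (Gad1, Eno2 and Sv2b), against 12.4%. The 27 members had 41 windows, and a member counted if any of its windows held the motif, while the percentages are of single windows. The median GC content was 55.6% over the members' windows and 52.4% over all.

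Astrocyte markers were high in every library, and the neuronal transcripts were present beside them. Slc1a3, the glutamate transporter of astrocytes, ranged from 1420 to 3308 TPM in the ipsilateral libraries and from 1557 to 2991 TPM in the contralateral libraries. Gfap ranged from 117 to 1065 TPM over both. The microglial integrin Itgam was at most 8.86 TPM. Among genes of immature neurons, Dcx was at most 0.78 TPM, while Stmn1 reached 617 TPM and Nnat 1368 TPM. Mbp, the myelin basic protein of oligodendrocytes, reached 3484 TPM. The ipsilateral library of PTE− mouse 9_14 stood apart, with 10727 genes above 0 TPM against 15599 to 18534 in the other libraries, and the main ipsilateral results are also given without it.

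The 38 members together took between 307 and 2734 TPM of a library. Over all 37 libraries the sum had a median of 1246 TPM, and a median of 28 members stood above 5 TPM. The largest sum was that of the ipsilateral library of PTE− mouse 8_9, and the smallest that of the contralateral library of PTE− mouse 9_16. The order of members was led by Celf4, a neuronal RNA-binding protein that acts on splicing and mRNA stability, with a mean of 138 TPM. Snap25, a SNARE protein of vesicle fusion, had a mean of 112 TPM, and Cnih2, an auxiliary subunit of AMPA receptors, a mean of 111 TPM. Camk2a followed with 81.1 TPM, Slc17a7 with 74.7 TPM and Syn2 with 69.6 TPM. The 8 members at the bottom (Syt4, Nefm, Nefh, Gad2, Sv2b, Neurod6, Tbr1 and Elavl2) did not reach a mean of 5 TPM in a group of every comparison, so 30 of 38 entered every test.

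**Figure D1:**
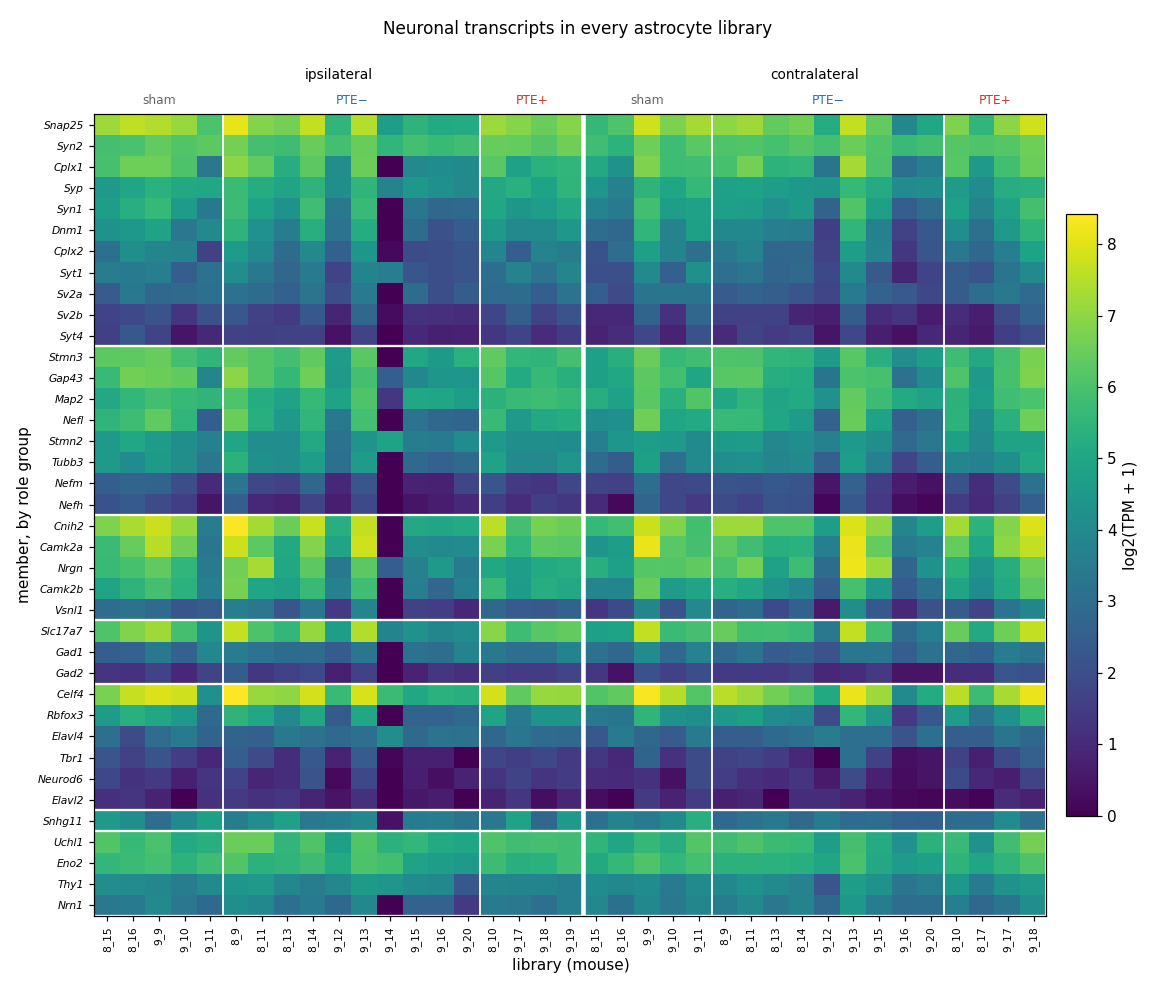
Level of each of the 38 members (rows, by role group from vesicle release at the top to enzymes and surface proteins at the bottom) in each of the 37 libraries (columns, by hemisphere and group, named by mouse), as log2(TPM + 1). Most rows brighten and darken together, with pale columns such as ipsilateral 8_9 (summed 2734 TPM) and dark columns such as contralateral 9_16 (307 TPM), and ipsilateral 9_14 has 20 members at 0.

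Among the 11 vesicle genes, Snap25 had the highest mean level and Syn2 the narrowest range. Snap25 stood at 64.1, 139, 144, 172 and 196 TPM in the ipsilateral sham libraries and at 89.5, 116, 118 and 145 TPM in PTE+. In ipsilateral PTE− it ranged from 24.5 through a median of 73.2 to 274 TPM, and without 9_14 from 34.7 through 100.8 to 274 TPM. Both injured groups overlapped sham, and PTE+ lay inside the range of PTE−. In the contralateral cortex Snap25 was at 47.2, 67.2, 108, 155 and 221 TPM in sham and at 45.8, 110, 124 and 221 TPM in PTE+. Contralateral PTE− ran from 14.02 through 83.6 to 198 TPM, and the 3 groups again overlapped.
Syn2, a synapsin that tethers vesicles, ranged only from 45.7 (50.6 without 9_14) to 99.1 TPM in the ipsilateral libraries and from 42.3 to 93.1 TPM in the contralateral libraries. Its exons overlap, on the other strand, those of Timp4, which stood at 114 to 245 TPM in the same libraries. The library kit does not mark strand, so reads shared by the pair cannot be told apart. The closely related Syn1 ranged more widely, from 4.66 to 69.5 TPM in the contralateral libraries. Cplx1, a complexin that clamps SNARE complexes, reached 154 TPM there, and Dnm1, the dynamin that retrieves vesicles, reached 46.0 TPM. In the same contralateral libraries the vesicle membrane protein Syp was seen at 11.6 to 49.1 TPM and the calcium sensor Syt1 at 0.83 to 17.8 TPM. Sv2a, the vesicle glycoprotein that binds levetiracetam, kept to 2.4 to 10.3 TPM there.

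Stmn3 and Gap43 were the highest of the cytoskeletal and axonal group. Stmn3, a stathmin that acts on microtubules, stood in ipsilateral sham at 44.5, 59.3, 77.3, 80.1 and 87.1 TPM and in ipsilateral PTE+ at 44.7, 47.0, 59.9 and 81.4 TPM. Ipsilateral PTE− ran from 0 through 49.7 to 83.3 TPM, the 0 being mouse 9_14. In the contralateral libraries Stmn3 ranged from 16.8 to 105 TPM with no separation of groups. Gap43, a growth cone protein, ranged from 13.1 to 122 TPM in the ipsilateral libraries without 9_14 and from 8.08 to 110.3 TPM in the contralateral ones. Map2 of dendrites was more even, with 25.2 to 68.2 TPM ipsilaterally without 9_14. Of the neurofilament genes only the light chain Nefl was abundant, reaching 94.5 TPM contralaterally, while Nefm reached 8.96 TPM and Nefh 5.64 TPM over both tables. Nefl and Nefm share overlapping exons on opposite strands.

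The 5 postsynaptic and calcium genes varied widely between libraries. Cnih2 stood at 10.7, 109.98, 136, 162 and 215 TPM in ipsilateral sham and at 59.5, 90.9, 102 and 190.3 TPM in ipsilateral PTE+. Ipsilateral PTE− reached from 0 (mouse 9_14) through 64.1 to 328 TPM, which enclosed the other groups. Without 9_14 it ran from 29.5 through 90.8 to 328 TPM, which left out the low sham value, that of mouse 9_11. Camk2a, the alpha subunit of the synaptic kinase, ranged from 8.86 to 221 TPM in the ipsilateral libraries without 9_14 and from 9.73 to 289 TPM in the contralateral libraries, where sham 9_9 (289 TPM) and PTE− 9_13 (286 TPM) were both at the top. Camk2b, its beta subunit, had a highest-to-lowest ratio of 19.6 and Nrgn, a calmodulin store of dendrites, one of 51.9 in the contralateral libraries. Cnih2 exons overlap those of Yif1a, which stood at 131 to 206 TPM there.

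Excitatory and inhibitory transmitter genes did not keep a fixed ratio. Slc17a7, the vesicular glutamate transporter VGLUT1, stood at 19.6, 59.9, 67.8, 112 and 147 TPM in ipsilateral sham and at 54.2, 73.3, 82.2 and 119 TPM in ipsilateral PTE+. Ipsilateral PTE− ran from 12.8 through 35.8 to 203 TPM, and without 9_14 from 13.4 through 47.1 to 203 TPM. Contralaterally it ran from 6.83 to 200.3 TPM over all groups. Gad1, which makes GABA, kept between 4.5 and 14.03 TPM in the ipsilateral libraries without 9_14 and between 3.47 and 15.8 TPM in the contralateral ones. The ratio of Slc17a7 to Gad1 therefore went from 1.26 to 21.4 over 18 ipsilateral libraries and from 1.40 to 23.8 over 18 contralateral libraries. Gad2, the other GABA-making enzyme, was at most 4.65 TPM.

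Among the nuclear and RNA-binding genes, Celf4 and Rbfox3 moved with the bulk and Elavl4 did not. Celf4 ranged from 17.8 to 341 TPM in ipsilateral libraries and from 14.9 to 318 TPM in contralateral libraries. Rbfox3, whose protein is the NeuN antigen, ranged from 1.61 to 47.1 TPM contralaterally. The study used this gene as a marker of neurons when it checked its astrocytes by qPCR, and reported it as reduced relative to whole cortex. A level relative to whole cortex and a TPM within a library are unlike measures, and they were not compared. Elavl4, a neuronal ELAV protein that stabilises mRNA, stayed at 2.75 to 9.81 TPM in 18 ipsilateral libraries and was highest, at 17.01 TPM, in 9_14, where 20 other members were at 0. Neurod6 and Tbr1, transcription factors of excitatory cortical neurons, reached 3.45 and 7.42 TPM.

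Uchl1 and Eno2 were the more abundant of the enzymes and surface proteins. Uchl1, a ubiquitin hydrolase, ranged from 26.5 to 90.1 TPM in the ipsilateral libraries, and Eno2, the neuron-specific enolase, from 22.5 to 68.6 TPM. Without 9_14, Thy1, a surface glycoprotein of projection neurons, ranged from 4.01 to 22.8 TPM, and neuritin, Nrn1, from 1.7 to 17.4 TPM. Nrn1 exons overlap those of Fars2, which stood at 158 to 246 TPM over both tables. Snhg11, a host gene of small nucleolar RNA listed as non-coding here but typed as protein coding in the annotation used, ranged from 6.21 to 28.7 TPM ipsilaterally without 9_14 and from 5.19 to 38.01 TPM contralaterally. In all, 12 of 38 members have exons that overlap another annotated gene.

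Most members were high in the same libraries and low in the same libraries. In the 18 contralateral libraries the median Pearson r between pairs of the 30 tested members was 0.776 over 435 pairs, against 0.0996 over pairs of all 10672 genes tested. In the ipsilateral libraries it was 0.705, or 0.751 without 9_14, against 0.0878 and 0.124. These correlations are over libraries that share their groups and preparation, and are given as a description. Against the mean of the other members, 27 of 38 had r above 0.8 contralaterally and 26 ipsilaterally. Syn1 was highest on both sides (0.987 contralaterally, 0.989 ipsilaterally), followed contralaterally by Dnm1 (0.985) and Nefl (0.981).

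A few members kept their own course. Elavl4 had r = 0.0715 with the mean of the others in the contralateral libraries and −0.237 in the ipsilateral libraries without 9_14. Snhg11 had 0.256 and −0.0206, and Gad1 had 0.676 and −0.00932. Thy1 and Elavl2 had 0.756 and 0.519 contralaterally, and 0.435 and 0.495 ipsilaterally without 9_14. The span of levels differed likewise: of the 37 members above 0 in every contralateral library, 23 varied by more than 10-fold and 9 by less than 5-fold. Syn2 (2.20-fold) and Eno2 (2.79-fold) were at the narrow end.

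Further pan-neuronal genes followed the members closely, while values for other lists varied with hemisphere and mouse name. The mean log2(TPM + 1) of the members correlated at r = 0.990 with that of 30 further pan-neuronal and synaptic genes in the contralateral libraries and at 0.979 in the ipsilateral ones. For genes of excitatory layers r was 0.857 and 0.894 (0.794 without 9_14). For interneuron genes it was 0.861 and 0.817 (0.707 without 9_14), but 0.092 within the 7 ipsilateral mice named 8_. Genes of immature neurons gave 0.218 and 0.437, the latter −0.00737 without 9_14. The 12 astrocyte markers gave −0.0741 contralaterally and −0.188 ipsilaterally, or −0.599 without 9_14. Without 9_14, the astrocyte value was 0.0149 within the 7 ipsilateral mice named 8_ and −0.455 within the 11 named 9_. The 8 oligodendrocyte markers gave 0.105 contralaterally but 0.796 ipsilaterally, 0.686 without 9_14. They gave 0.0517 in the 7 ipsilateral libraries of mice named 8_. In the 12 of mice named 9_ they gave 0.874, or 0.780 without 9_14. Summed oligodendrocyte markers ranged from 519 to 4453 TPM in the ipsilateral libraries, and their part in the members' levels was not tested. Microglial markers gave 0.541 ipsilaterally (0.291 without 9_14) and 0.374 contralaterally, where it was 0.878 within the 8 mice named 8_. The number of genes above 0 TPM in a library gave 0.687 ipsilaterally (0.236 without 9_14) and 0.543 contralaterally. Within mice named 8_ and 9_ it gave −0.25 and 0.771 (0.407 without 9_14) ipsilaterally, and 0.514 and 0.748 contralaterally. The part of both in the members' levels was not tested.
Single genes outside the list that followed the members most closely were Svop, Rab6b and Sult4a1 ipsilaterally without 9_14 (r from 0.982 to 0.987 over 18 libraries). In the contralateral libraries the closest was Prkar1b, a regulatory subunit of protein kinase A (r = 0.987 over 18 libraries). In all 2.64% of 10584 other genes without 9_14, and 2.998% of 10642 contralaterally, had r above 0.8.

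Both hemispheres of a mouse tended to share their level. The mean log2(TPM + 1) over members of the ipsilateral and contralateral libraries correlated at r = 0.588 (Spearman's rho 0.498) over 17 mice, which falls to 0.368 without mice 9_20 and 9_16. Within the 7 mice named 8_ it was 0.296, and within the 10 named 9_ it was 0.816. PTE− mice 9_12, 9_16 and 9_20 were low on both sides, between 2.45 and 3.12 on this scale. PTE− mouse 9_13 and sham mouse 9_9 were high on both sides, between 4.62 and 4.94. Single members had a median r of 0.567 between hemispheres, against 0.4657 over 10412 genes tested in both tables. Slc17a7 and Snap25 were among those above 0.5, and Elavl4 was negative at −0.339.

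**Figure D2:**
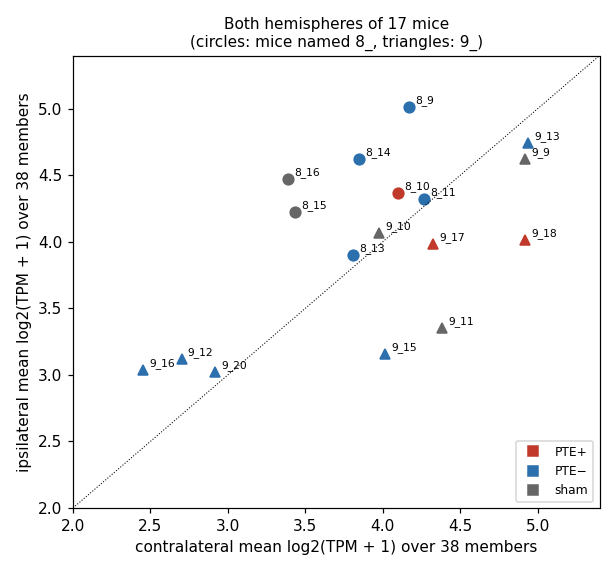
Mean log2(TPM + 1) over the 38 members in the contralateral (horizontal axis) and ipsilateral library (vertical axis) of each of 17 mice, coloured by group, with the line of equality dotted. Mice 9_12, 9_16 and 9_20 sit low on both axes and 9_13 and 9_9 high, while the sham mice 8_15 and 8_16 lie well above the line.

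The members' level overlapped between groups on both sides. In the ipsilateral cortex the mean log2(TPM + 1) over members was 4.15 ± 0.495 in sham (SD, n = 5), 3.65 ± 1.06 in PTE− (n = 10) and 4.15 ± 0.186 in PTE+ (n = 4). Without 9_14, PTE− was at 3.88 ± 0.816 (n = 9). In the contralateral cortex it was 4.02 ± 0.649 in sham (n = 5), 3.68 ± 0.820 in PTE− (n = 9) and 4.17 ± 0.662 in PTE+ (n = 4). All 4 PTE+ values lay inside the range of PTE− on each side. The summed TPM of the same members ran from 996 to 1665 TPM in ipsilateral PTE+ (n = 4), against 335 to 2734 TPM in PTE− (n = 10). The 335 TPM was mouse 9_14, and the next lowest PTE− sum was 478 TPM. Contralateral sums were not as narrow, with 608 to 2446 TPM in PTE+ and 307 to 2664 TPM in PTE−.

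**Figure D3:**
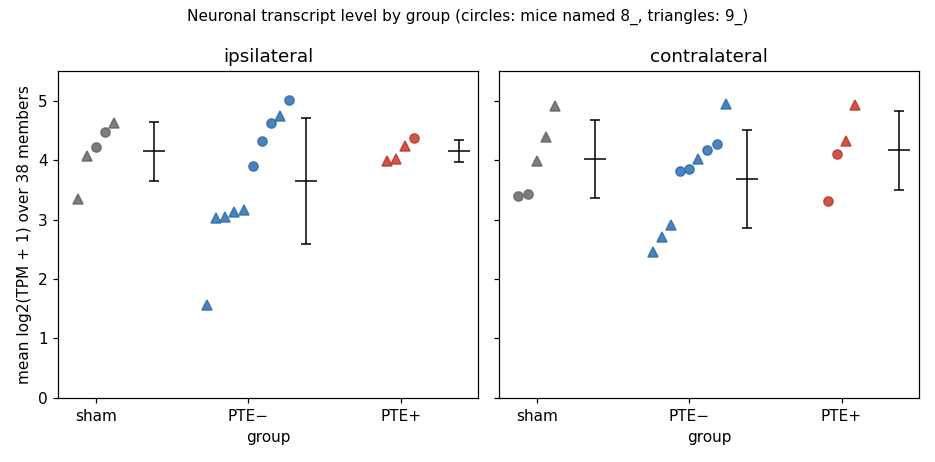
Mean log2(TPM + 1) over the 38 members in each library, by group and hemisphere, with circles for mice named 8_ and triangles for mice named 9_. The black mark beside each group is the mean with 1 SD, and PTE+ libraries (3.98 to 4.37 ipsilaterally) fall within the range of PTE− (1.56 to 5.01).

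For CCI against sham, which asks what injury changed, members were mostly lower in the injured mice, by amounts that the tests did not separate from the spread. In the ipsilateral cortex (14 CCI, 5 sham libraries) the log2 fold change was below 0 for 35 of 38 members, with a median of −0.40 against −0.01 over all genes tested. No member was called, where a call is an unadjusted limma p under 0.05 with at least a 1.2-fold change, and 1.62% of all 10434 genes tested were called. No exact permutation p of a member was under 0.05 either, the smallest being 0.146. The extremes were Nefl (−0.82) and Elavl4 (0.26). Snap25 differed by −0.63 (95% confidence interval −1.60 to 0.34) and Slc17a7 by −0.38 (−1.67 to 0.91). Syn2, the most even of the abundant members, differed by −0.02 (−0.38 to 0.33). Without 9_14 no member was called where 3.83% of all genes tested were, and the median over members was −0.21. Snap25 then differed by −0.50, Slc17a7 by −0.23, Nefl by −0.49 and Syn2 by 0.02. Like Syn2, Gad1 (0.19) and Cnih2 (0.004) moved above 0. Members moved together, so counts of members on 1 side of 0, here and below, are not counts of independent changes. Without sham mouse 9_9 the median was −0.19. Within mice named 8_ (5 CCI, 2 sham) the mean over members was 0.09 higher in CCI, and within those named 9_ (9 and 3) it was 0.58 lower. The CCI libraries named 9_ include 9_14, whose mean was 1.56, against 3.02 in the next lowest CCI library. The difference within 9_ without that library is not given. Among role groups of more than 1 gene the medians ran from −0.55 for cytoskeleton and axon to −0.03 for the transmitter genes. The 7 oligodendrocyte markers tested had a median of −0.998 in the same comparison, and 0.65 (6 tested) for PTE+ against PTE− in the same cortex. All these role and marker medians include 9_14 and are not given without it. Its mean log2(TPM + 1) over the oligodendrocyte markers, 2.93, was the lowest of the ipsilateral libraries. The part of these markers in the members' values was not tested.

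In the contralateral cortex (13 CCI, 5 sham libraries) 34 of 38 members were below 0, with a median of −0.19 against −0.07 over all genes tested, and 1 member was called where 4.05% of all 10556 genes were. This was Snhg11, at 7.47, 10.3, 13.02, 14.9 and 38.01 TPM in sham, at 6.67, 6.95, 7.54 and 16.02 TPM in PTE+, and from 5.19 through 6.69 to 9.70 TPM in PTE−. The groups overlapped, with the lowest sham library below the highest CCI libraries. Its log2 fold change was −0.85 ± 0.26 (SE), with limma p = 0.00425 and adjusted p = 0.978, and an exact permutation p of 0.00735. Without sham mouse 9_11, its highest library, the log2 fold change was −0.51 and the call remained. A second member was called without PTE+ mouse 9_18 or sham mouse 8_15 (Eno2), and without sham mouse 8_16 or 9_10 (Gad1). The share of all genes called in those fits is not given here. This count therefore does not show that members changed more than other genes. Within mice named 8_ the Snhg11 difference was −0.40, and within mice named 9_ it was −1.14. Gad1 differed by −0.42 (95% confidence interval −0.91 to 0.07) and Snap25 by −0.36 (−1.40 to 0.68), neither called. The median over members changed sign, to 0.04, without sham mouse 9_9, and the mean over members was 0.51 higher in CCI within mice named 8_ but 0.67 lower within those named 9_.

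For PTE+ against PTE−, which asks what goes with epilepsy among injured mice, most members were higher in PTE+ on both sides, again within the spread. In the ipsilateral cortex (4 against 10 libraries) 36 of 38 members were above 0, with a median of 0.50 against 0.12 over all genes tested. No member was called, where 0.573% of 10473 genes were, and no exact permutation p was under 0.05, the smallest being 0.0679 for Syn2. Without 9_14 no member was called and 1.89% of all genes tested were. Syn2 stood at 71.2, 84.5, 86.2 and 96.3 TPM in PTE+ and from 45.7 through 59.3 to 99.1 TPM in PTE−, a log2 difference of 0.39 (95% confidence interval −0.02 to 0.80). It was called with the prefix of the mouse's name as covariate (0.43), with sham in the fit (0.39) or without PTE+ mouse 9_18 (0.47). Camk2a differed by 1.12 (−1.15 to 3.38), Snap25 by 0.59 (−0.62 to 1.79) and Thy1, at the low end, by −0.19. Without 9_14, the PTE− library with 20 members at 0, the median was 0.23, with Camk2a at 0.55, Snap25 at 0.41 and Syn2 at 0.34. Nefm (−0.09), Nrgn (−0.14) and Elavl2 (−0.02) were then below 0, as were Thy1 and Elavl4. Within mice named 9_ (3 against 6) the mean over members was 0.97 higher in PTE+, and the 1 PTE+ mouse named 8_ was 0.10 below its 4 PTE− mice. The PTE− libraries named 9_ include 9_14, at 1.56 against 3.02 in the next lowest PTE− library. The difference within 9_ without that library is not given.

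In the contralateral cortex (4 against 9 libraries) 34 of 38 members were above 0, with a median of 0.47 against 0.05 over all genes tested. Stmn2, a stathmin of growing axons, was the 1 member called, where 2.79% of 10423 genes were. It stood at 14.6, 26.8, 27.9 and 28.02 TPM in PTE+ and from 6.39 through 16.4 to 24.1 TPM in PTE−. PTE+ mouse 8_17 was inside the range of PTE−, and the other PTE+ libraries were above it. The log2 fold change was 0.64 ± 0.30 (SE), limma p = 0.0491 and adjusted p = 0.999, and the exact permutation p was 0.0769. The call was lost with a pseudocount of 0.1, no filter on TPM, quantile normalization, median centring, the prefix as a covariate, or without PTE+ mouse 8_10, 9_17 or 9_18. Without 8_10 another member, Sv2a (0.69), was called instead. The Stmn2 difference was 1.13 within mice named 9_ (2 against 5) and 0.07 within those named 8_ (2 against 4). Slc17a7 differed by 1.18 (95% confidence interval −0.38 to 2.75) and Camk2a by 1.16 (−0.41 to 2.73), the largest values, and neither was called. Within mice named 8_ the mean over members was 0.31 lower in PTE+, and within those named 9_ it was 1.22 higher. The 6 endothelial markers tested had a median of 0.72 in this comparison, above that of the members. Microglial, oligodendrocyte and oligodendrocyte precursor markers had medians of 0.07, 0.002 and 0.06, and choroid plexus and ependymal markers −0.19. Their part in the members' values was not tested.

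**Figure D4:**
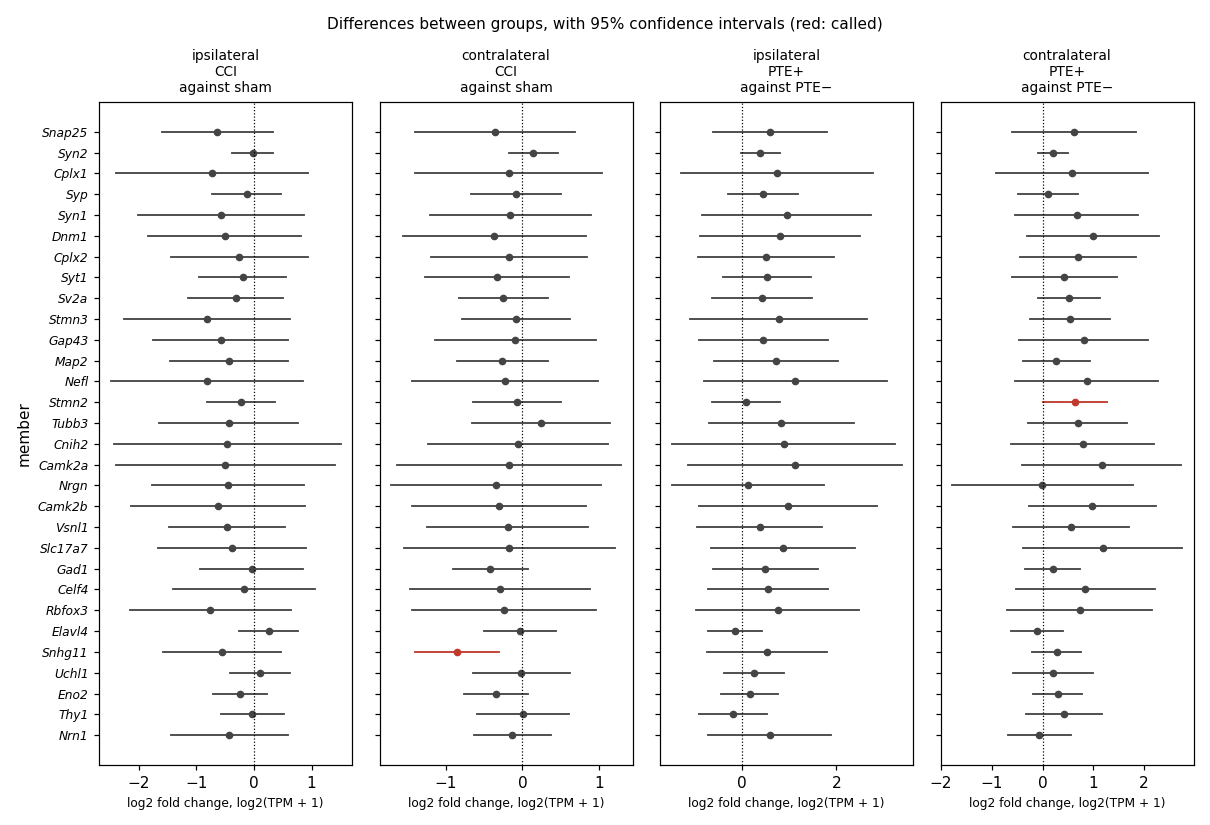
Log2 fold change of the 30 members tested in every comparison, with 95% confidence intervals from limma, in 4 panels for CCI against sham and PTE+ against PTE− in each hemisphere. Nearly all intervals cross 0, and the called members, Snhg11 (−0.85) and Stmn2 (0.64), are in red.

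Within the 12 injured mice with both hemispheres, 29 of 38 members were above 0, with a median ipsilateral minus contralateral difference of 0.07 against −0.01 over all genes tested. The hemispheres stand in separate tables of TPM, and the mouse was the block. Snhg11 and Nrn1 were the 2 members called, where 4.38% of 10350 genes were. Snhg11 was higher on the injured side in 11 of 12 injured mice, the exception being PTE+ mouse 9_18. Over these mice its differences ran from −0.24 through 0.63 to 1.40, and they averaged 0.63 ± 0.13 (SE), with limma p = 0.00027, adjusted p = 0.256 and an exact sign-flip permutation p of 0.00146. In the 5 sham mice its difference averaged 0.18 ± 0.83 (SD), with 2 of 5 above 0, these being the sham mice named 8_ (mean 0.94), while the 3 named 9_ averaged −0.34. The difference between injured and sham mice was 0.45 (95% confidence interval −0.17 to 1.08), not called.
Nrn1 was lower on the injured side in 10 of 12 injured mice. Its differences ran from −1.62 through −0.29 to 0.62 and averaged −0.38 ± 0.16 (SE), with limma p = 0.0291, adjusted p = 0.510 and an exact permutation p of 0.0518. The call was lost without PTE+ mouse 9_18 (−0.32), and the mean was −0.02 in the 5 mice named 8_ and −0.63 in the 7 named 9_. Sham mice averaged −0.22 ± 0.54 (SD, n = 5). With both hemispheres of the same 12 mice taken as independent, Snhg11 stayed called and Nrn1 did not. When the unpaired libraries 8_17, 9_14 and 9_19 were added as well, neither was called (Snhg11 0.47, Nrn1 −0.52). Leaving out PTE+ mouse 9_17 gave 4 called members and leaving out 9_18 gave 5, with Gad1 and Sv2a among them each time, where 5.44% and 4.89% of all genes tested were called.

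Gad1 was the 1 member called for a CCI effect that differed between hemispheres, where 6.76% of 10695 genes were called. Its ipsilateral minus contralateral difference was above 0 in 8 of 12 injured mice, from −0.50 through 0.33 to 0.66. In the sham mice it was −0.68, −0.62, −0.22, −0.20 and 0.17. The groups overlapped, and their means differed by 0.54 ± 0.19 (SE), with limma p = 0.00943, adjusted p = 0.623 and an exact permutation p of 0.015. It was not called when both hemispheres of the same mice were taken as independent (0.54), nor with the unpaired libraries added (0.38). The median over the 38 members was −0.04, but 0.11, 0.22 and −0.34 without sham mouse 8_15, 8_16 and 9_11, and 0.04 without PTE+ mouse 9_18. A second member joined Gad1 without sham mouse 8_15 (Snhg11), 8_16 (Sv2a) or 9_11 (Nefl). The share of all genes called in those fits is not given here, so this count does not show that members changed more than other genes.
No member was called for a PTE+ effect that differed between hemispheres, where 3.11% of 10683 genes were called. The values of 35 of 38 members were below 0, with a median of −0.58 over 3 PTE+ and 9 PTE− mice, and the smallest exact permutation p was 0.105. This rests on few mice: without PTE+ mouse 8_10, which leaves 2, 13 members were called lower, among them Camk2a, Slc17a7, Cnih2 and Dnm1, where 7.62% of 10879 genes were called. Without 9_18 the median was −0.23. It was 0.04 with hemispheres as independent and the unpaired libraries added, among them 9_14, and stayed at −0.58 with hemispheres as independent in the same mice.

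**Figure D5:**
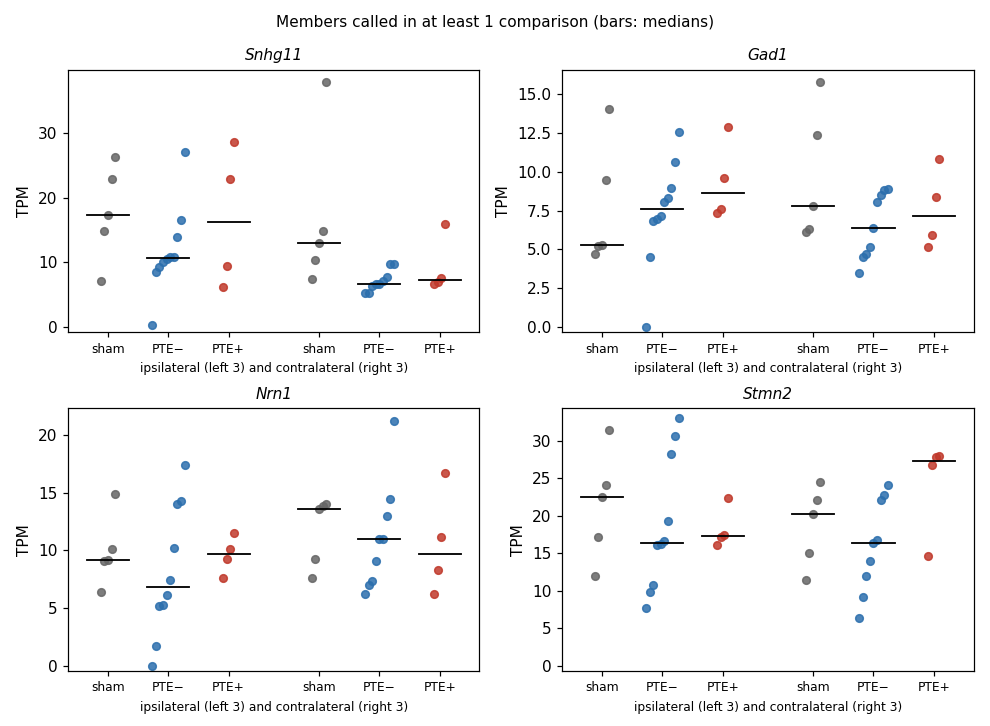
TPM of Snhg11, Gad1, Nrn1 and Stmn2, the members called in at least 1 comparison, in every library by group, with ipsilateral groups at the left and contralateral groups at the right of each panel and bars at the medians. Groups overlap throughout, and the contralateral sham library at 38.01 TPM in the Snhg11 panel is mouse 9_11.

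Lists of other neuronal genes held no called gene, where 0.573% to 6.76% of all genes tested were called in the 7 comparisons. Of 30 further pan-neuronal and synaptic genes 22 to 24 were tested in the comparisons above, and of 10 genes each of excitatory layers, interneurons and immature neurons 4 to 6, and 0 passed the limma call in any of the 7 comparisons. The pan-neuronal list had medians of −0.16 and −0.14 for CCI against sham on the ipsilateral and contralateral sides, and of 0.42 and 0.35 for PTE+ against PTE−. Ipsilateral medians in this paragraph include 9_14 and are not given without it. Of 12 astrocyte markers 0 were called, with medians of 0.05, −0.09, 0.13 and −0.09 in the same order. Beside those shares, 0 calls in lists this small do not show that they changed less than other genes. Of the members tested, 0 had an adjusted limma p under 0.05 in any comparison, while 0, 1, 0, 1, 3, 1 and 0 had an unadjusted p under 0.05 in the order described, against 1.87%, 4.47%, 0.602%, 2.91%, 8.97%, 7.08% and 3.11% of all genes tested. No member's groups stood apart without overlap in the 4 comparisons within a hemisphere, where 0, 2, 4 and 18 of all genes tested (0%, 0.0189%, 0.0382% and 0.173%) did.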

How the data were processed

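RNA of ACSA-2 captured cortical astrocytes was measured in 37 libraries. Per the labels and methods, the authors prepared SMART-Seq v4 libraries, trimmed reads with Trim Galore 0.6.4, quantified them on mm10 with RSEM 1.2.28 and Bowtie2 2.4.1, and deposited TPM per gene, in 1 table per hemisphere. The annotation release is not given in the sources used here. TPM keep no depth, so the reads behind a value are unknown. The authors tested raw counts with DESeq2 1.36.0, which was not repeated. They state that a PTE+ animal was left out for a low correlation value and a PTE− animal for lacking sequencing data. By the labels, each of the 15 injured mice has at least 1 library here. The unpaired mice lack a single hemisphere, and no injured mouse is absent from both tables.

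Log2(TPM + 1) was fitted with limma 3.58.1 (R 4.3.3, trended eBayes), keeping genes whose mean passed 5 TPM in 1 or more of the groups compared. A call was an unadjusted p under 0.05 with at least a 1.2-fold change, the thresholds of the study, and adjusted p-values are Benjamini-Hochberg over all genes tested. Fold changes on this scale understate those of low genes. Single members were also tested by two-sided exact permutation, with smallest possible p-values from 8.6e-05 to 0.00455. Hemispheres were compared on within-mouse differences, since the labels name the animal. As a check of this pairing, each animal's deviations on the 2 sides correlated with a median r of 0.432 across 10412 genes, above 0.1 in 16 of 17 animals. Where nothing else is said a level is a TPM and a difference is on the log2(TPM + 1) scale.

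Exon overlaps are from GENCODE on GRCm38, upstream sequences from RefSeq. Members described singly are the 2 highest of each role group and each member that was called or had an exact p under 0.05. Other members are named as examples, chosen after their values were seen. The fits were tested on simulated data. The members and lists were chosen with earlier results of these data known. Within-prefix values, correlations without mouse 9_14, and fits without the block in the paired mice alone, were added after seeing the data. Mouse names begin with 8 or 9, and what this marks is not stated. Alternatives were another pseudocount, filters, quantile normalization, median centring, array weights, covariates, the block and leaving out libraries.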

Additional observations from a re-analysis of the deposited data

Results flagged for a closer look

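Of 96 groups checked, 8 held a library far from the others, where chance gives about 1 in 20 for a single check. The checks run over the mean of the members and over single members in the same libraries. Members moved together, so the checks are not independent and their count cannot be compared with that rate. In the ipsilateral PTE− group, mouse 9_14 stood at 0 TPM for Stmn3 (nearest library 23.25 TPM), Camk2a (15.21 TPM), Gad1 (4.5 TPM) and Cnih2 (29.53 TPM), and at 0.34 TPM for Snhg11 (8.48 TPM). That library had 10727 genes above 0 TPM. In ipsilateral sham, Cnih2 was at 10.68 TPM in mouse 9_11, against 109.98 TPM in the nearest library. In contralateral PTE+, Stmn2 was at 14.63 TPM in mouse 8_17, against 26.82 TPM, and Snhg11 was at 16.02 TPM in mouse 9_17, against 7.54 TPM.

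The CCI effect on Gad1 differed between hemispheres by 0.541895 on the log2(TPM + 1) scale, tested as the difference of within-mouse values between 12 injured and 5 sham mice (limma p = 0.00943, adjusted p = 0.623).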

How the results depend on the processing

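TPM keep no depth, so no counting error could be given. Called members numbered 2 with array weights for CCI against sham on each side (Stmn3 and Nefl ipsilaterally, Gad1 and Snhg11 contralaterally), where 8.08% and 5.76% of all genes were called. For PTE+ against PTE− they numbered 1 ipsilaterally with the name prefix as covariate or all 3 groups fitted, and 0 contralaterally with pseudocount 0.1, no filter, quantile normalization, median centring or the prefix. Without the replicate block, and with unpaired libraries added, 0 were called between hemispheres and 0 for the difference in CCI effect, and the median PTE+ effect difference was 0.041. Without the block in the same mice, chosen after seeing the data, 1 was called between hemispheres (Snhg11, p = 0.00438 in limma) and 0 for the CCI effect difference. Leaving out 1 library or mouse of PTE+ or sham (between hemispheres of PTE+ alone, and of PTE− only ipsilateral 9_14), gave 1 to 2 called members for contralateral CCI, 0 to 1 for PTE+ on each side, 2 to 5 between hemispheres, 1 to 2 for the CCI effect difference and 0 to 13 for the PTE+ effect difference. The share of all genes called also changed with the setting, for ipsilateral CCI from 1.62% in the main fit to 8.08% with array weights. Counts of members given without that share therefore do not show whether members changed more than other genes. Snhg11 in contralateral CCI stayed called under all 17 alternatives (−1.06 to −0.51), the Gad1 CCI effect difference under 12 of 14 and Stmn2 under 4 of 12. The causes were not tested.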
